A study of Mus musculus with 10 samples.

Results

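The RAS to ERK cascade was read here through 7 genes: the RAS GTPases Hras1 and Nras, the RAF kinases Araf and Braf, the MEK kinases Map2k1 and Map2k2, and the ERK kinase Mapk3. Every non-control probe whose gene name in the scanner files was 1 of these 7 symbols was taken, which gave 16 of the 55681 probes on the array and 7 of its 24185 named genes. Hras1 is the older symbol of Hras, which the RefSeq gene table uses, and Map2k1, Map2k2 and Mapk3 code for MEK1, MEK2 and ERK1. The 10 samples were 4 of cultured mouse spermatogonia and 6 of spermatogonia sorted from testes, each hybridized alone to an Agilent mouse array with the dye Cy3.

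The cultured samples were wildtype germline stem (GS) cells, which are spermatogonia that self-renew in culture. All 4 had been kept for 3 days without FGF2 and GDNF, and 2 of them were then given 100 ng/mL FGF5 for 24 hr while the other 2 were not. The labels give their strain as C57BL/6, whereas by the methods of the study they derived from C57BL/6 mice intercrossed with ICR mice. The sorted samples were GFRα1+ cells taken by FACS from Gfrα1-GFP mice of 2.5 months of age, 3 from wildtype (WT) and 3 from Fgf5 -/- testes, so that the GFP allele was shared by both genotypes. The labels give the strain C57BL/6 for these as well. Neither the labels nor the methods say whether samples came from separate cultures or animals or whether animals were pooled, so p-values measure the spread between these samples, which may be technical.

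FGF binding to its receptor recruits exchange factors that load RAS with GTP, and GTP-bound RAS brings RAF kinases to the membrane. RAF phosphorylates MEK, MEK phosphorylates ERK, and ERK acts on cytoplasmic kinases and on transcription factors in the nucleus. The cascade is run by phosphorylation of proteins that are already present, and an expression array measures only the amount of their mRNA. In spermatogonia, FGF and GDNF both signal through RAS. The samples are bulk RNA, so fewer cells of a type and less RNA per cell cannot be told apart.

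The values below belong to single 60-base probes, and those of several genes lie far apart on the transcript. The probes that carried the clearest differences and lie in coding sequence are shown whole, in mm9 and 5′ to 3′ on the transcript strand. The first is the brightest Hras1 probe at chr7:148377296-148377355, minus strand, near the end of the coding sequence. The second is the dimmer Map2k2 probe at chr10:80582043-80582102, plus strand, in which the capitals mark the codons around the serines that RAF phosphorylates. The third is the brighter Map2k2 probe, which runs from chr10:80585320-80586386, plus strand, and so spans an intron.
Hras1 A_51_P357664: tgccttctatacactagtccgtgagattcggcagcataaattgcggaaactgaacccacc
Map2k2 A_55_P2152292: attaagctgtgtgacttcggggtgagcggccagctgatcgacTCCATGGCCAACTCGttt
Map2k2 A_51_P439626: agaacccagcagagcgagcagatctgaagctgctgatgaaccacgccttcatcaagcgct

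The Braf probes and the second measured Hras1 probe lie outside the stretches above, and only their first 30 bases are shown, to set apart probes that lie at different positions of long transcripts. The brightest Braf probe is at chr6:39553758-39553817 and the other at chr6:39557807-39557866, both on the minus strand, and their starts are 4049 bases apart. The dim Hras1 probe is at chr7:148375031-148375090, minus strand, 2265 bases downstream of the brightest.
Braf A_51_P403760: tacattcctcttgtctgtaactgccaaagg
Braf A_55_P2170787: gaagctgtgcccagaaaccaggctcagggt
Hras1 A_66_P139159: accttgggtcctctatagagaggtgattcc

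Each value is the log2 of a signal after subtraction of the 75th percentile of the non-control spots on its array, so that 0 is a signal at that percentile and 1 more is a doubling. Well above background is a call that the scanner software makes for each spot. The software made that call on all 10 arrays for 15 of the 16 probes, and Hras1 A_55_P1979536 was well above background on 0 of 10 and was not tested. Unless another probe is named, a gene's value is that of its brightest probe, by the mean over the 10 arrays. Levels of different probes are not compared, because probes bind with different strength.

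The 75th percentile was between 575.2 and 1091 scanner units, the share of probes above background ran from 55.26% to 65.87% per array, and 0 spots were saturated. Sorted cells had all 12 markers of undifferentiated spermatogonia well above background on every array, as had cultured cells with FGF5 for 11 of 12 and without FGF5 for 10 of 12. Shisa6 was not well above background on the 4 cultured arrays. The Fgf5 probe was well above background on 1 of 6 sorted arrays, and that one was labelled Fgf5-/- replicate 1, at -3.42 against -6.66 to -5.47 on the WT arrays and -6.83 and -6.90 on the other 2 labelled Fgf5-/-. This goes against the label of that array if the probe lies in the deleted part, which the sources used here do not give. The same array had the lowest mean correlation with the other sorted arrays, 0.9725 against 0.9773 to 0.98. It was far below or above the other 5 sorted arrays for 13% of probes, by a test of extreme values that chance passes in about 1 group in 20. The values of the 7 genes by genotype are therefore given with and without it, and those of other genes with it unless stated.

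The question in culture was whether FGF5 changed the mRNA of the cascade that carries its signal. For none of the 7 genes did a difference between cultures with and without FGF5 pass the threshold, and the log2 differences ran from -0.35 for Mapk3 to 0.10 for Nras, with a median of -0.07. By limma with Benjamini-Hochberg adjustment over 34612 probes, 0 of the 15 probes of the cascade were called, beside a percentage of 0 over all tested probes. At an unadjusted p under 0.05 there were 0 of the 15, beside 2.55% of all tested probes. The intervals were wide. Over the 7 genes, the 95% intervals ran from -1.09 for Mapk3 to 1.049 for Nras, which are folds of 0.470 and 2.07, so changes within these bounds could not be told from none with 2 arrays per condition.

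Mapk3, the ERK1 kinase, had the largest difference, which came from 1 array. Its log2 signal was 3.51 and 2.80 with FGF5 and 3.54 and 3.47 without. Only replicate 2 with FGF5 stood low, while the other 3 arrays lay within a narrow band. The difference was -0.35 ± 0.28 (SE, n = 2 and 2; limma adjusted p = 0.9999), and without replicate 2 of the FGF5 cultures it was 0.0020. On the second probe of the gene, A_55_P2121662, the FGF5 arrays were at 2.08 and 1.46 and the others at 2.19 and 2.11, so that here both FGF5 arrays were the lower.

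The brightest probes of the RAS genes differed by replicate number more than by FGF5. Hras1 was at 2.52 and 2.85 with FGF5 and at 2.41 and 2.89 without. Nras was at 2.06 and 2.90 with FGF5 and at 2.11 and 2.65 without. In both genes replicate 2 was the higher one in each condition, and the conditions overlapped. For the brightest Nras probe, replicate 1 minus replicate 2 was -0.69 while FGF5 minus none was 0.10. The other 2 Nras probes differed the other way between the numbers, by 0.27 for A_51_P396273 and 0.21 for A_52_P566348. For the dim Hras1 probe A_66_P139159, FGF5 minus none was 0.26, with both FGF5 arrays above the others, and number 1 minus 2 was -0.08.

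Braf, the RAF kinase with the highest basal activity, ran opposite to Hras1 between the replicate numbers. Its signal was 1.69 and 1.15 with FGF5 and 1.84 and 1.29 without. The number 1 arrays were higher by 0.54 on average, and FGF5 minus none was -0.15 ± 0.30 (SE). Within each number the FGF5 culture was the lower by 0.15, whereas on the second probe, A_55_P2170787, it was the higher by 0.20 and 0.04. Across the 7 genes, the difference between numbers was larger than that of FGF5 in 6, or 85.7%, beside 67.7% of all tested probes. The labels do not say that equal numbers shared a culture. The summed signal of 11 fibroblast and peritubular markers, in units of the array's 75th percentile, also differed between the numbers, at 14.95 and 16.49 on the number 1 arrays with and without FGF5 and at 6.719 and 7.725 on the number 2 arrays, and its part in these differences was not tested.

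Araf, the other RAF kinase, and the 2 MEK genes had the smallest range over the 4 arrays. Araf was at 2.93 and 2.92 with FGF5 and at 2.96 and 3.02 without. Map2k1 was at 3.05 and 3.22 with FGF5 and at 3.15 and 3.31 without. Map2k2 was at 3.03 and 2.96 with FGF5 and at 2.89 and 3.08 without. The 3 differences were -0.07, -0.09 and 0.01, and the 2 cultures of a condition overlapped those of the other except for Araf. The other Araf probes went the other way. A_55_P2049854 was at 0.26, with both FGF5 cultures above the others, and A_55_P2049856 at 0.14, with overlap. In 4 of the 15 probes the FGF5 cultures lay wholly above or below the others, beside 22.7% of all tested probes, 2 of them higher with FGF5 (8.18% of all) and 2 lower (14.5%).

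**Figure D1:**
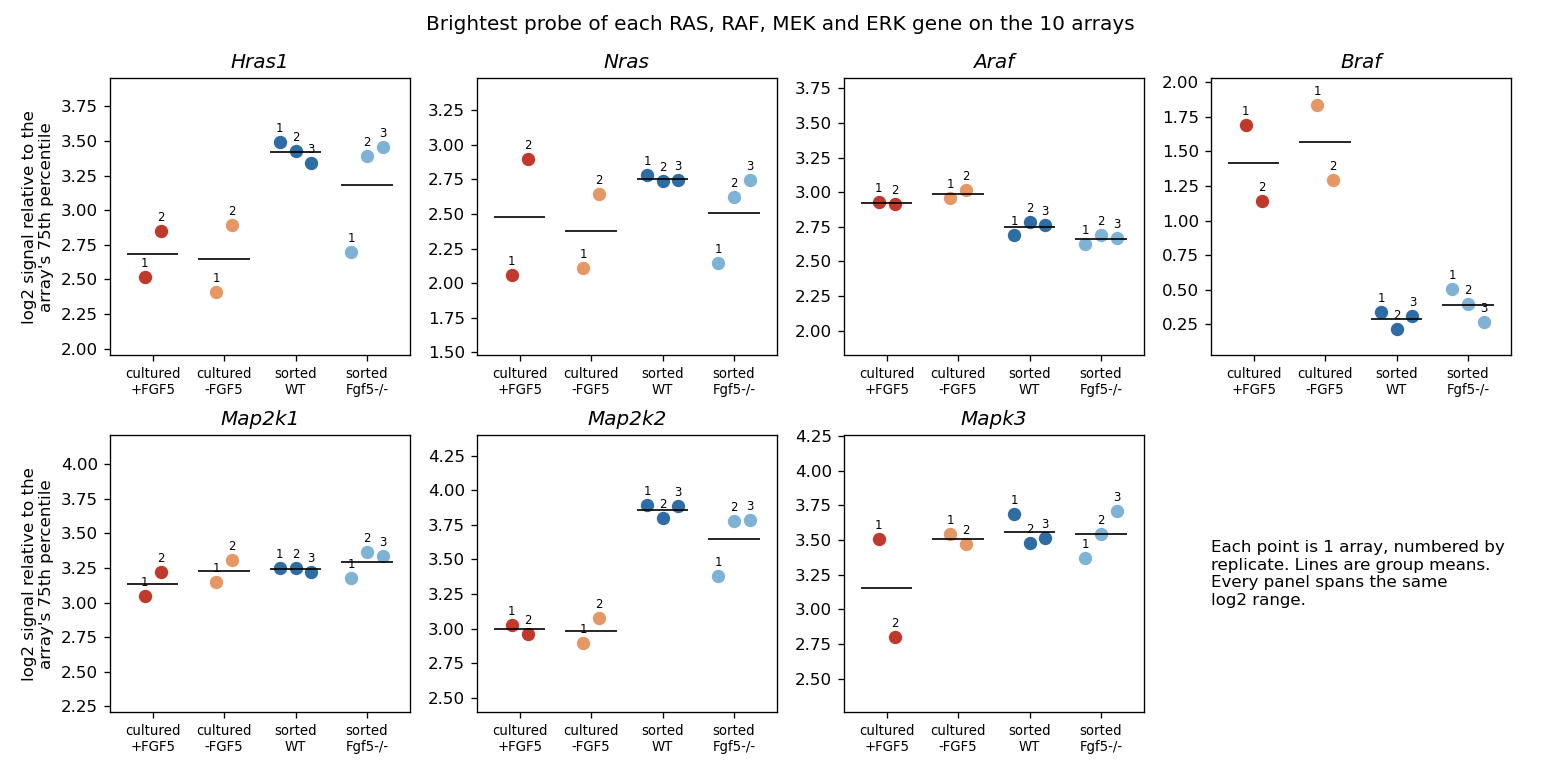
Log2 signal of the brightest probe of each of the 7 genes on every array, by group, each point an array numbered by its replicate, and each line the mean of a group. Braf stood higher in the 4 cultured arrays than in the 6 sorted ones, and Map2k2 lower. The array labelled Fgf5-/- replicate 1 was the lowest sorted array for every gene but Braf, for which it was the highest. It lay farthest below the others for Hras1, Nras and Map2k2.

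The comparison of sorted cells asked whether loss of Fgf5 altered the cascade in spermatogonia of the testis. None of the 7 genes passed the threshold, and the differences ran from -0.25 for Nras to 0.10 for Braf with a median of -0.08. Of the 15 probes, 0 were called among 30285 tested, beside a percentage of 0, and 1 had an unadjusted p under 0.05, beside 6.79% of all tested probes. The 95% intervals of the 7 genes lay between -0.75 and 0.36, so folds beyond 0.593 and 1.29 lay outside all 7 intervals.

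That probe was Hras1 A_66_P139159, the dim one downstream of the brightest. It was at -2.75, -2.60 and -2.79 in WT and at -3.27, -3.08 and -3.04 in Fgf5-/-. The genotypes did not overlap here, nor for 2 of the other probes, beside 16.2% of all tested probes. Of these 3, the Hras1 probe and the brightest Map2k2 probe were lower in Fgf5-/- (9.20% of all) and Araf A_55_P2049856 higher (7.01%). The difference was -0.42 ± 0.12 (SE, n = 3 and 3; limma adjusted p = 0.728), and without the array labelled Fgf5-/- replicate 1 it was -0.34 (adjusted p = 0.535).

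The brightest Hras1 probe was at 3.49, 3.42 and 3.34 in WT and at 2.70, 3.39 and 3.46 in Fgf5-/-. Only replicate 1 labelled Fgf5-/- was low, and the other 2 lay among the WT values. Its difference of -0.24 (adjusted p = 0.791) became 0.0037 without that array. Nras was at 2.78, 2.74 and 2.75 in WT and at 2.15, 2.62 and 2.74 in Fgf5-/-, and its difference of -0.25 became -0.07 without it. The other 2 Nras probes went the other way with all arrays, at 0.09 for A_51_P396273 and 0.05 for A_52_P566348.

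Map2k2, the MEK2 kinase, showed the same array. It was at 3.90, 3.80 and 3.88 in WT and at 3.38, 3.78 and 3.79 in Fgf5-/-. Its difference was -0.21 ± 0.14 (SE; adjusted p = 0.764), and -0.08 without the array labelled Fgf5-/- replicate 1. The second Map2k2 probe gave -0.08 with that array and -0.01 without it. The genotypes did not overlap for the brightest Map2k2 probe, with 3.79 the highest Fgf5-/- value and 3.80 the lowest WT one.

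The other 4 genes had differences within 0.10 of 0 between genotypes. Map2k1 was at 3.25, 3.25 and 3.22 in WT and at 3.17, 3.37 and 3.34 in Fgf5-/-, and Araf was at 2.69, 2.78 and 2.76 in WT and at 2.63, 2.69 and 2.67 in Fgf5-/-. Braf was at 0.34, 0.22 and 0.31 in WT and at 0.50, 0.40 and 0.27 in Fgf5-/-. Mapk3 was at 3.69, 3.48 and 3.52 in WT and at 3.37, 3.54 and 3.71 in Fgf5-/-. In each of the 4 the genotypes overlapped, and the differences were 0.05, -0.08, 0.10 and -0.02 in the order given. Without the array labelled Fgf5-/- replicate 1 they were 0.11, -0.06, 0.05 and 0.07, and over the 15 probes the differences then ran from -0.34 to 0.19. With that array, the other probes gave -0.01 for Braf A_55_P2170787 and 0.12 for Mapk3 A_55_P2121662. Those of Araf gave 0.19 for A_55_P2049854 and 0.10 for A_55_P2049856.

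Cultured and sorted cells differed widely. The comparison averaged the 4 cultured arrays and the 6 sorted arrays by group, and 23226 of 33921 tested probes (68.5%) were called, 41.8% higher and 26.7% lower in culture. The median difference of all tested probes was 0.23, so the difference of each of the 7 genes is also given relative to that median, and other values are not. The cultured arrays were all on 1 slide and scan and the sorted ones on another. The cultured cells had been kept without FGF2 and GDNF, the sorted cells were taken by FACS, and by the methods their strains differed. Material, slide, isolation, depletion and strain cannot be told apart. Of the 7 genes, 4 were called (57.1%), Braf and Araf higher in culture and Map2k2 and Hras1 lower. Of the 15 probes, 10 were called (66.7%), 5 in each direction, and 11 had an unadjusted p under 0.05, beside 71.3% of all tested probes. The materials did not overlap for 9 of 15 probes, beside 57.0% of all, with 5 higher in culture (35.1% of all) and 4 lower (21.9%). These shares lie near those of all tested probes. Without the array labelled Fgf5-/- replicate 1, the same 4 genes were called.

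**Figure D2:**
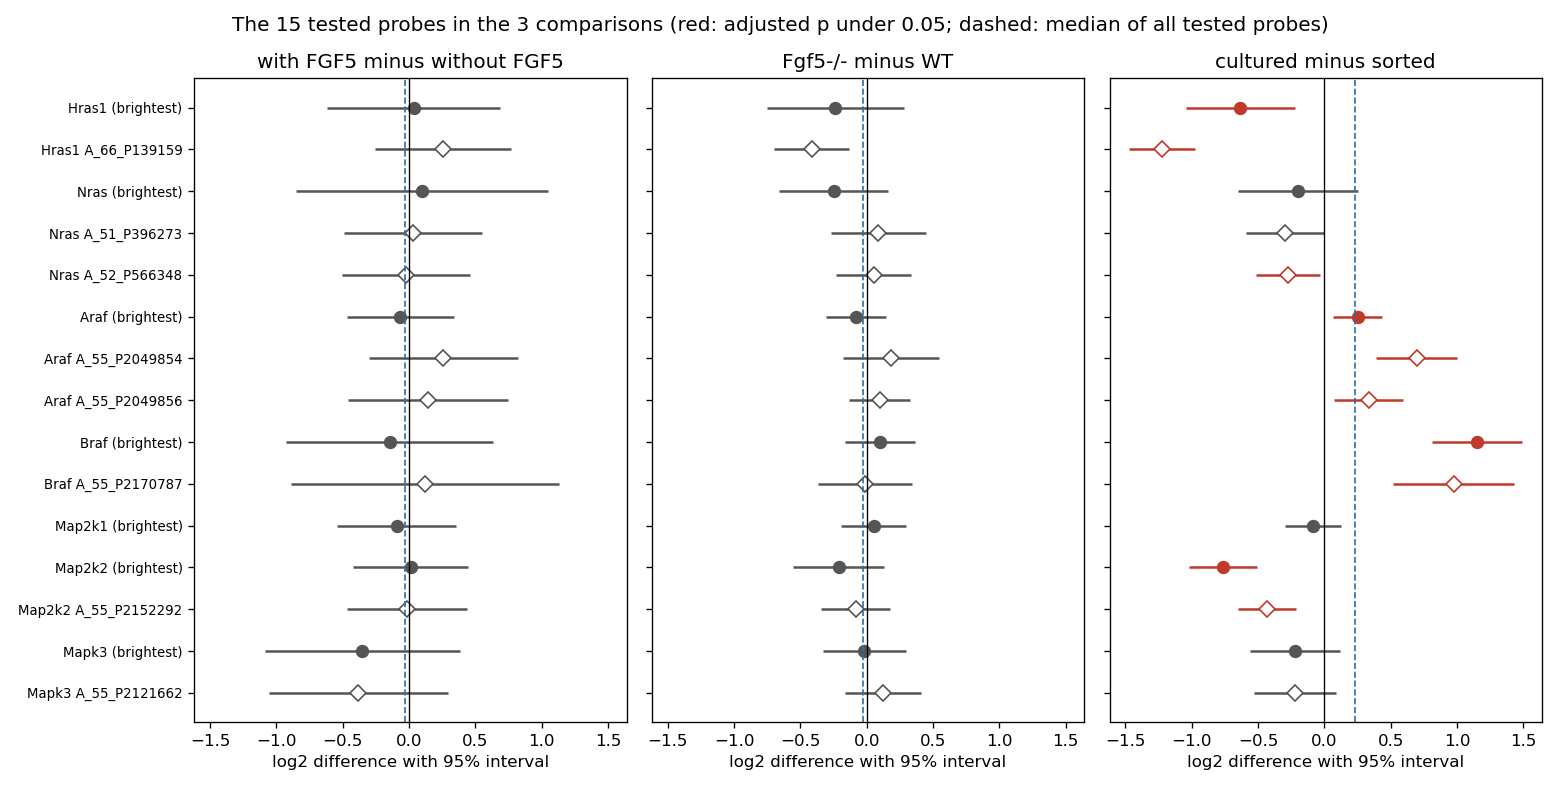
Log2 differences of the 15 tested probes with their 95% intervals in the 3 comparisons, with filled circles for the brightest probe of a gene, open diamonds for the others, red for an adjusted p under 0.05, and a dashed line at the median of all tested probes. Every interval crosses 0 in the FGF5 comparison, and in the material comparison the Braf probes are the highest and the Hras1 and Map2k2 probes the lowest.

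Braf had the largest difference of the 7 genes. Its brightest probe was at 1.15 to 1.84 on the 4 cultured arrays (median 1.49) and at 0.22 to 0.50 on the 6 sorted arrays (median 0.33), with no overlap. The difference was 1.15 ± 0.15 (SE; limma adjusted p = 0.000194), a fold of 2.22 and 0.92 relative to the median of all probes. The second probe, 4049 bases upstream, gave 0.97 (adjusted p = 0.00248). Both probes passed the threshold in all 21 alternatives, with 1.02 to 1.29 for the brightest. Against WT cells alone, the difference was 1.28 without FGF5 and 1.13 with FGF5.

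Araf was 2.92 to 3.02 in culture and 2.63 to 2.78 in sorted cells, with no overlap. Its difference was 0.25 ± 0.08 (SE; adjusted p = 0.0217), and relative to the median of all probes it was 0.02. This call was lost in 6 of 21 alternatives, 2 of which leave out a cultured array. The other Araf probes, which the files list under another transcript and which start 7491 and 7661 bases upstream, were higher by 0.70 for A_55_P2049854 (adjusted p = 0.00167) and by 0.33 for A_55_P2049856 (adjusted p = 0.0283). The call of A_55_P2049854 was lost under quantile normalization (0.31, adjusted p = 0.0759), and that of A_55_P2049856 in 8 of 21 alternatives, with adjusted p up to 0.132. Probe A_55_P2049854 lay between -2.81 and -2.31 in culture and between -3.34 and -2.87 in sorted cells, again without overlap.

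Map2k2 was the lowest relative to sorted cells among the brightest probes. It was at 2.89 to 3.08 in culture and at 3.38 to 3.90 in sorted cells, with no overlap. The difference was -0.76 ± 0.11 (SE; adjusted p = 0.000387), which is 1.70-fold lower, and -0.99 relative to the median. The probe over the activation segment was lower by 1.35-fold (adjusted p = 0.00341). Without the array labelled Fgf5-/- replicate 1 the differences were -0.83 and -0.47. Map2k1, which codes for the other MEK, was at 3.05 to 3.31 in culture and at 3.17 to 3.37 in sorted cells. Its difference was -0.09 ± 0.09 (SE; adjusted p = 0.419), with a 95% interval from -0.30 to 0.12. It was -0.32 relative to the median, and it turned positive under quantile normalization and with the percentile taken over probes above background. The difference between the MEK genes was not tested.

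Hras1 was lower in culture on both measured probes. The brightest was at 2.41 to 2.89 in culture and at 2.70 to 3.49 in sorted cells, and overlapped through the array labelled Fgf5-/- replicate 1. Its difference was -0.63 ± 0.18 (SE; adjusted p = 0.0123), 1.55-fold lower and -0.86 relative to the median, and it was -0.75 (adjusted p = 0.00142) without that array. It missed the threshold when replicate 1 with FGF5 was left out (-0.55, adjusted p = 0.0505) or replicate 1 without FGF5 (-0.51, adjusted p = 0.0539). The dim probe was at -4.35 to -3.85 in culture and at -3.27 to -2.60 in sorted cells, with no overlap. Its difference was -1.22 ± 0.11 (SE; adjusted p = 2.65e-05), 2.33-fold lower. The size of this difference depended on the processing, with -0.41 after normexp background correction and -1.70 after quantile normalization, and the probe passed in all 21 alternatives.

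Nras and Mapk3 did not pass the threshold on their brightest probes. Nras was at 2.06 to 2.90 in culture and at 2.15 to 2.78 in sorted cells, with a difference of -0.20 (adjusted p = 0.392). Its probe A_52_P566348 passed at -0.28 (adjusted p = 0.0425), but in only 9 of 21 alternatives, with adjusted p up to 0.258, and A_51_P396273 did not pass at -0.30 (adjusted p = 0.0654). Mapk3 was at 2.80 to 3.54 in culture and at 3.37 to 3.71 in sorted cells, with a difference of -0.22 (adjusted p = 0.212). Its second probe gave -0.22 (adjusted p = 0.176). Relative to the median of all probes, Nras was at -0.43 and Mapk3 at -0.45. Mapk3 passed in 1 of 21 alternatives, without replicate 1 with FGF5 (-0.40, adjusted p = 0.0217), and without replicate 2 with FGF5, the low array, it was at -0.05 (adjusted p = 0.753).

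Markers of other cell types moved with the material. The summed signal of the 11 fibroblast and peritubular markers, in the same units, was between 6.72 and 16.5 in culture and between 5.09 and 6.57 in sorted cells. That of the 7 Sertoli cell markers was between 2.07 and 2.61 in culture and between 4.17 and 5.35 in sorted cells. Single markers did not all follow the sums. Of 10 tested fibroblast markers, 6 were called higher in culture and 2 lower, with Pdgfrb lowest at -2.12. Of 5 tested Sertoli markers, 1 was called higher, Sox9 at 2.03, and 3 lower. Over all tested probes these shares were 41.8% and 26.7%. Of the fibroblast markers, 2 of 11 were well above background on no array of each culture condition, against 0 in WT and 1 in Fgf5-/- cells. The 12 markers of undifferentiated spermatogonia summed to 96.7 to 105 in culture and to 128 to 155 in sorted cells. Taken 1 by 1, 10 of these 12 were called lower in culture (26.7% of all tested probes were) and 1 higher. Their median difference was -2.46, from -4.94 for Eomes to 0.25 for Zbtb16, so the sums understate the differences of most of these markers. Their part in the differences of the cascade was not tested.

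The rest of the pathway was read from lists of genes by role. For each, the gene with the highest and the lowest difference is named, and 0 genes of any list passed the threshold in the FGF5 or the genotype comparison. The closest relatives outside the 7 were 11 GTPases and kinases. With FGF5, Mapk15 was highest at 0.13 and Map2k5, the MEK of ERK5, lowest at -0.17, and in Fgf5-/- cells Mapk4 was at 0.27 and Map2k5 at -0.18. In culture against sorted cells, 3 of 11 were higher and 3 lower, with Mapk4 at 1.996 and Mras at -0.97. Such counts between materials, here and for the lists below, are of genes that passed the threshold. Of all tested probes, 41.8% were called higher and 26.7% lower in culture.

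Exchange factors load RAS with GTP and GTPase-activating proteins switch it off. Rasgrp3, an exchange factor, was highest with FGF5 (limma adjusted p = 0.9999). Only the FGF5 cultures had it well above background, which is also how it entered the test, and no size is given. Rasgrp1 was lowest at -0.37. In Fgf5-/- cells Rasgrf1 was at 0.49 and Rasgrp2 at -0.36. Between materials, 6 of 17 tested genes were higher and 5 lower in culture. Rasgrp4 was highest at 1.89. Rasgrf1 was lowest, but it was well above background on only 1 of 4 cultured arrays, and its difference ran from -4.08 to -0.89 over the alternatives other than leaving out an array, so no size is given.

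Another list held 14 genes that process the lipid anchor of RAS. With FGF5, Lypla2 was at 0.20 and Lypla1 at -0.19, both of which remove palmitate. In Fgf5-/- cells, Icmt, the carboxyl methyltransferase, was at 0.14 and Abhd17c, a depalmitoylase, at -0.29. In culture, 2 of 14 were higher and 2 lower, with Abhd17c at 1.03 and Fntb, the beta subunit of farnesyltransferase, at -0.92.

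Of the 24 scaffolds and modulators, Pea15a, which holds ERK in the cytoplasm, was at 0.45 with FGF5 and Paqr3, which tethers RAF to the Golgi, at -0.23. In Fgf5-/- cells Pebp1, the RAF kinase inhibitor protein, was lowest at -1.06 (limma adjusted p = 0.728), and at -0.63 without the array labelled Fgf5-/- replicate 1, while the arrestin Arrb2 was highest at 0.29. Between materials, 9 of 24 were higher and 6 lower in culture, with the arrestin Arrb1 at 2.20 and Cnksr1, a scaffold, at -1.01.

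Of the 8 kinases that ERK activates, Rps6ka1, which codes for RSK1, was at 0.49 with FGF5 and Rps6ka2 at -0.09. In Fgf5-/- cells Rps6ka2 was at 0.23 and Mknk2 at -0.20. In culture, 2 of 8 were higher and 4 lower, with Rps6ka2 at 0.67 and Rps6ka1 at -1.44. Of the 11 kinases of the JNK and p38 cascades, which run beside ERK, Mapk12 was at 1.15 with FGF5 and Mapk13 at -0.31. In Fgf5-/- cells Map2k7 was at 0.27 and Mapk10 at -0.43. In culture, 2 of 11 were higher and 5 lower, with Mapk8 at 0.96 and Mapk12 at -1.68.

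A further list held 18 transcripts that ERK activity is known to induce. It was chosen with earlier results of these data known, and it holds Etv5 and Myc, which the study reported as raised by FGF5 in culture. Genes well above background only with FGF5 could also enter the FGF5 comparison. The counts with FGF5 are therefore a description and not independent support. With FGF5, 17 were tested, and all 17 had a positive difference, with a median of 1.201, beside -0.03 over all tested probes and -0.07 over the 7 genes. Dusp6, a phosphatase that acts on ERK, was highest at 4.59 (limma adjusted p = 0.9999), and Etv1 lowest at 0.03. At an unadjusted p under 0.05 there were 9 of 17, beside 2.55%, and 12 of 17 did not overlap between conditions, all higher with FGF5, beside 8.18%. In Fgf5-/- cells the median was -0.16, beside -0.03 over all tested probes, with Spry2 at 0.21 and Phlda1 at -0.42. Of the 18, 17 had a negative difference and 1 a positive one. The genotypes did not overlap for 6 of 18, all lower in Fgf5-/-, beside 9.20% of all tested probes. At an unadjusted p under 0.05 there were 3 of 18, beside 6.79%. These genotype values include the array labelled Fgf5-/- replicate 1, and the list was not summarized without it. In culture against sorted cells, 16 of 18 were lower (26.7% of all tested probes were) and 0 higher, with a median of -1.72 and with Ccnd1, cyclin D1, at -4.45 and Etv1 at -0.02. The FGF5 and material comparisons share the 4 cultured arrays, and the genotype and material comparisons share the 6 sorted arrays. The difference between this list and the 7 genes was not tested.

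**Figure D3:**
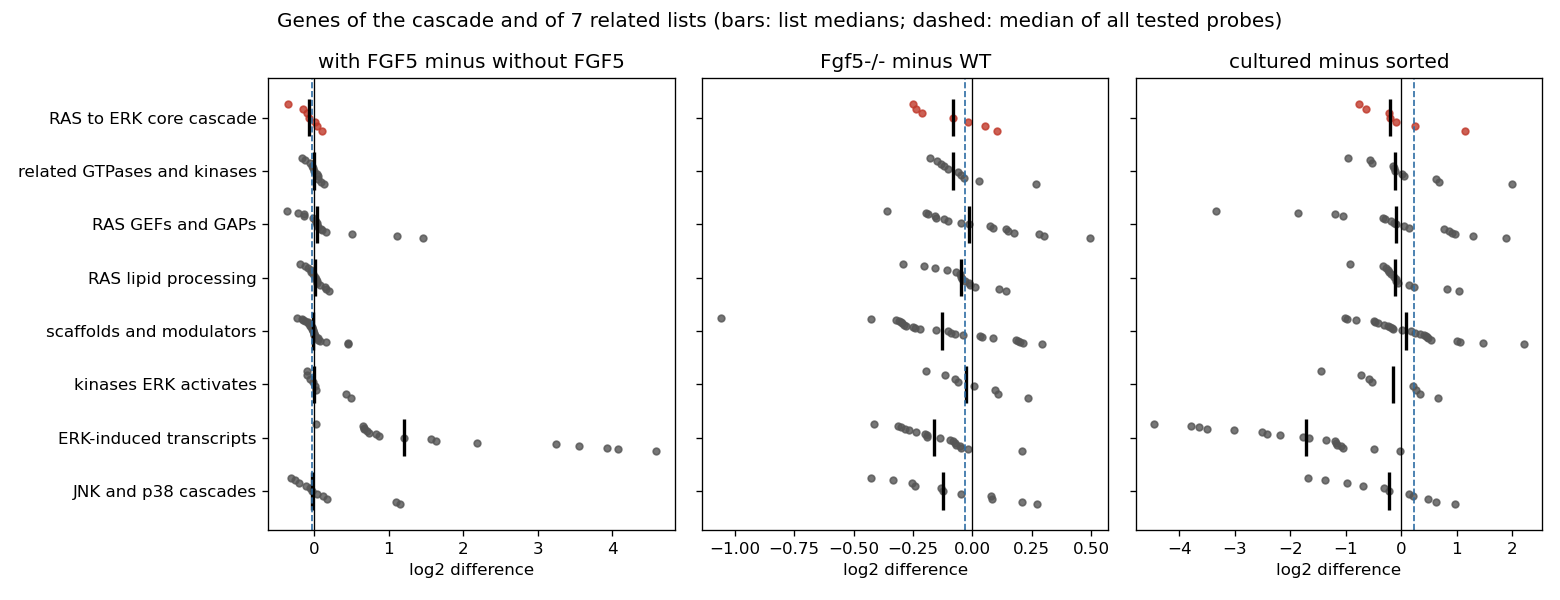
Log2 difference of each gene of the cascade (red) and of 7 related lists (grey), 1 point per gene, with a bar at the median of each list and a dashed line at the median of all tested probes, in each comparison on its own scale. The ERK-induced transcripts lie to the right with FGF5 and to the left in the material comparison, while the 7 genes lie between -0.35 and 0.10 with FGF5.

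For each of the 7 genes, the gene outside them with the highest correlation over the 10 arrays was found. The search covered 14830 named genes that were well above background on all arrays. A correlation compares patterns, not levels or sizes of difference. Atg4b was closest to Hras1 (Pearson r = 0.992), Rpn1 to Nras (0.979), BC026513 to Braf (0.994), Lhb to Araf (0.991), Txnip to Map2k1 (0.953), Vcp to Map2k2 (0.996) and Ccnjl to Mapk3 (0.991). These are highest values of many and describe 10 points that fall into 2 materials on 2 slides.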

How the data were processed

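RNA of each sample was labelled with Cy3 from 25 ng of total RNA and hybridized to 1 array. The authors deposited the scanner output, with background-subtracted signal intensity on a linear scale from Feature Extraction 10.7.1.1 by its header (10.7.3.1 by the labels), and a table of log2 values, which they made with a floor of 1.0 and a shift to the 75th percentile. That table differs from the values here by 1 constant per array, from 0.131 to 0.204.

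Here, signals were floored at 1, spots marked uneven or as outliers were dropped, log2 values of a probe's spots were averaged, and the 75th percentile of the 59305 non-control spots was subtracted. Dim probes depend most on the background subtraction. Probes entered a test if all arrays of 1 group or more called them well above background (for materials, on all 4 cultured or all 6 sorted arrays). Tests were two-sided with limma 3.58.1 in R 4.3.3, Benjamini-Hochberg adjustment over all tested probes, and a threshold of 0.05, and were tested on simulated data. The number of arrays limits precision. Coordinates were taken from the files (mm9).

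The genes, lists and tests were chosen with earlier results of these data known. Named genes were all probes of the 7 genes, the extremes of each list in each comparison, and the gene most correlated with each of the 7, with exceptions marked. Lists of markers covered undifferentiated and differentiating spermatogonia, germ cells, fibroblasts and peritubular cells, Sertoli, Leydig and endothelial cells, macrophages, spermatocytes and spermatids. Summed over markers, in units of the 75th percentile, the lists not given with the results ranged over cultured and then sorted arrays from 223 to 248 and 147 to 191 for germ cells, 124 to 167 and 147 to 178 for differentiating spermatogonia, 4.99 to 6.65 and 0.424 to 1.96 for Leydig cells, 3.79 to 4.73 and 1.43 to 2.65 for macrophages, 9.42 to 12.6 and 4.05 to 6.59 for endothelial cells, 24.8 to 33.0 and 21.1 to 23.9 for spermatocytes, and 1.64 to 2.17 and 5.36 to 17.1 for spermatids.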

Additional observations from a re-analysis of the deposited data

Results flagged for a closer look

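For 7 of the probes 1 array lay far from the others of its material, by the gap to the nearest array divided by the range of the 4 cultured or 6 sorted arrays. Chance gives this in about 1 group in 20. Over all probes, some array lay this far out for 4.55% in culture and 16.1% in sorted cells. In culture, replicate 1 without FGF5 was the lowest for Araf A_55_P2049854 (0.897 of the range), and replicate 2 with FGF5 was the lowest for Mapk3 A_52_P243249 (0.906) and Mapk3 A_55_P2121662 (0.846). Among the sorted arrays, the one labelled Fgf5-/- replicate 1 was the lowest for Hras1 A_51_P357664 (0.809), Nras A_52_P649296 (0.747), Map2k2 A_51_P439626 (0.772) and Map2k2 A_55_P2152292 (0.819). The same array was far from the others for 13% of 33906 probes, against 0.404% to 0.841% for each other sorted array, and was the one sorted array on which the Fgf5 probe was well above background.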

How the results depend on the processing

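In the FGF5 and genotype comparisons, 0 of the 7 genes passed the threshold under any alternative run, the replicate number as a block included (0 calls in both). Equal numbers deviated together in culture (r = 0.636) but not in sorted cells (r from -0.42 to -0.149), and the block moved the probes with an unadjusted p under 0.05 from 882 to 2481 in culture and from 2055 to 1561 in sorted cells. Leaving out 1 array, 0 to 6 probes of all passed in the genotype comparison (6 without the array labelled Fgf5-/- replicate 1, 5 without Fgf5-/- replicate 3, 1 without WT replicate 2 or 3) and 3 to 4 of the 7 genes in the material one, where other alternatives gave 3 or 4. All 4 called genes kept their direction in every alternative run. Between materials the median of all probes was 0.12 to 0.36 under the other scalings, and the share of calls that were higher in culture was 61% as reported, 55.5% under quantile normalization and 67.8% with the percentile over probes above background. Of the called genes, Araf missed the threshold with the authors' table (0.20), without a filter (0.25), and against WT cells alone without FGF5 (0.24) or with FGF5 (0.18).

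Directions turned for differences near 0 and for some larger ones. The larger ones included Pea15a at 0.45 and Mapk3 at -0.35 with FGF5, and Rps6ka2 at 0.67 and Mras at -0.97 between materials. With FGF5, leaving out 1 array gave ranges of -0.21 to 0.27 for Hras1, -0.32 to 0.52 for Nras, -0.42 to 0.13 for Braf, -0.080 to 0.10 for Map2k2, -0.71 to 0.0020 for Mapk3, -0.20 to 1.101 for Pea15a, -0.73 to 0.27 for Paqr3, -0.21 to 0.021 for Rps6ka2, -0.10 to 0.16 for Etv1 and -0.93 to 0.30 for Mapk13. By genotype they were -0.37 to 0.0037 for Hras1, -0.10 to 0.067 for Mapk3 and -0.36 to 0.60 for Spry2. Between materials they were -0.41 to 0.0088 for Nras and -0.26 to 0.26 for Etv1. With FGF5, normexp gave -0.024 for both Map2k2 and Etv1, and the mean of a gene's probes -0.26 for Hras1, 0.11 for Araf, -0.0036 for Map2k2, 0.16 for Rps6ka2 and -0.0085 for Etv1. By genotype, Mapk3 was 0.089 under quantile normalization, 0.00054 under normexp, 0.039 with the percentile over probes above background and 0.053 as the mean of its probes, and such means gave 0.068 for Araf and -0.15 for Rps6ka2. Between materials, Map2k1 was 0.052 under quantile normalization and 0.046 with that percentile, Etv1 0.14 under normexp and 0.11 with that percentile, and the means of probes gave -0.22 for Rps6ka2, 0.036 for Etv1 and 0.34 for Mras. The cause was not tested. The mean of the Hras1 probes with FGF5 took in A_55_P1979536, at -1.06. That probe was above background on 0 arrays and has no measured level.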
